A study of Mus musculus with 35 samples.

Results

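The response to BMP4 of mouse cells infected with the reprogramming factor combination labelled OB was examined at day 6 by poly-A selected RNA sequencing. All 6 libraries with these labels were used, of 35 in the series: 4 of OB cells grown without BMP4 and 2 of OB cells grown with it at 10 ng/ml. Both groups received the same factors by infection and were then cultured in iCD1, a reprogramming medium, with BMP4 present or absent from that change of medium on. The labels do not expand OB. The series title and design name Oct4 (Pou5f1) and Kdm2b, a histone demethylase that recruits the variant Polycomb complex PRC1.1 to CpG islands. The labels give no strain, starting cell, age or batch, and do not say whether replicates came from separate infections, so a p-value here reflects only how far libraries of a group varied, and that variation may be technical. Of 21350 genes in the table, 12656 reached 10 in 2 or more of the 6 libraries and were tested.

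BMP4 is a secreted ligand of the transforming growth factor beta (TGF-beta) superfamily. It assembles type I and type II receptor kinases, which phosphorylate Smad1, Smad5 and Smad9, and these enter the nucleus with Smad4 and bind the control regions of target genes. Among the best known targets are the Id genes, whose products block basic helix-loop-helix factors, and the feedback inhibitors Smad6, Smad7, Bambi and Nog. In embryos BMP signals specify ventral and extraembryonic mesoderm, trophoblast and surface ectoderm and oppose neural fate, and in fibroblast reprogramming BMPs are known to favour the early mesenchymal-to-epithelial transition.

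Values are normalized tag counts per gene with a common ceiling of 18690, not read counts, and they are not scaled by gene length, so levels are compared between libraries and not between genes. The log2 changes given are differences of log2(value + 1) between the groups, with BMP4 minus without, ± the standard error (SE) of a limma fit, and adjusted p is its Benjamini-Hochberg value over all 12656 genes, with 0.05 as the threshold for a call. For a gene near 0 in one group the size of that change depends on the 1 added. Pou5f1 was at the ceiling in all 6 libraries, and Kdm2b was at 18690 in the 4 libraries without BMP4 and at 9306 and 18690 with it, so neither value bounds a change. Kdm2a, the paralog of Kdm2b, was at 868, 868, 946 and 1034 without BMP4 and at 754 and 796 with it (log2 change −0.26 ± 0.81, adjusted p = 0.84). The spread was pooled over 27 libraries of 11 groups, and 1 of these stood apart: the library labelled OA day 14 replicate 2 had Kdm2a at 721 where the other OA libraries had 9294 or 18690, and Smad6 at 122 and Tlx2 at 237 although it is labelled without BMP4. With that OA library left out of the fit, the SE for Kdm2a was 0.21 (adjusted p = 0.36). Its treated OB values lay below all untreated ones, but it was not called. Another library was deposited with identical values as ODR without BMP4 and as ODR with BMP4 at day 6, and it was left out of both. Its values were 28 for Id3, 0 for Smad6 and 7 for Nog. The other untreated ODR day 6 libraries had 20 and 22, 0 and 0, and 2 and 2, and the other treated one had 780, 662 and 569. Fits that keep it as ODR with BMP4 thus place a library with these low values among the treated ones.

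BMP4 changed a large part of the transcriptome of OB cells. The test called 4469 genes (35.3% of those tested), 2082 of them higher with BMP4 (16.5%) and 2387 lower (18.9%), and the median change of all genes was −0.02. Each of the 6 libraries had a median value of 25 or 26 after normalization, so a median change near 0 follows largely from that scaling. A shift of all genes alike could not be seen in these values. The libraries of the groups did not overlap for 3372 genes that were higher (26.6%) and 3588 that were lower (28.4%). Of the called genes, 1005 rose and 1125 fell at least 2-fold. On log2 values the 4 libraries without BMP4 correlated with each other at 0.969 to 0.976 across genes, the 2 with BMP4 at 0.967, and libraries of different groups at 0.828 to 0.849. The number of calls was 5070 with the library that stood apart left out of the fit. It was 3092 without BMP4-treated replicate 1 and 2570 without BMP4-treated replicate 2, where the remaining library is assumed to vary like the other groups.

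**Figure D1:**
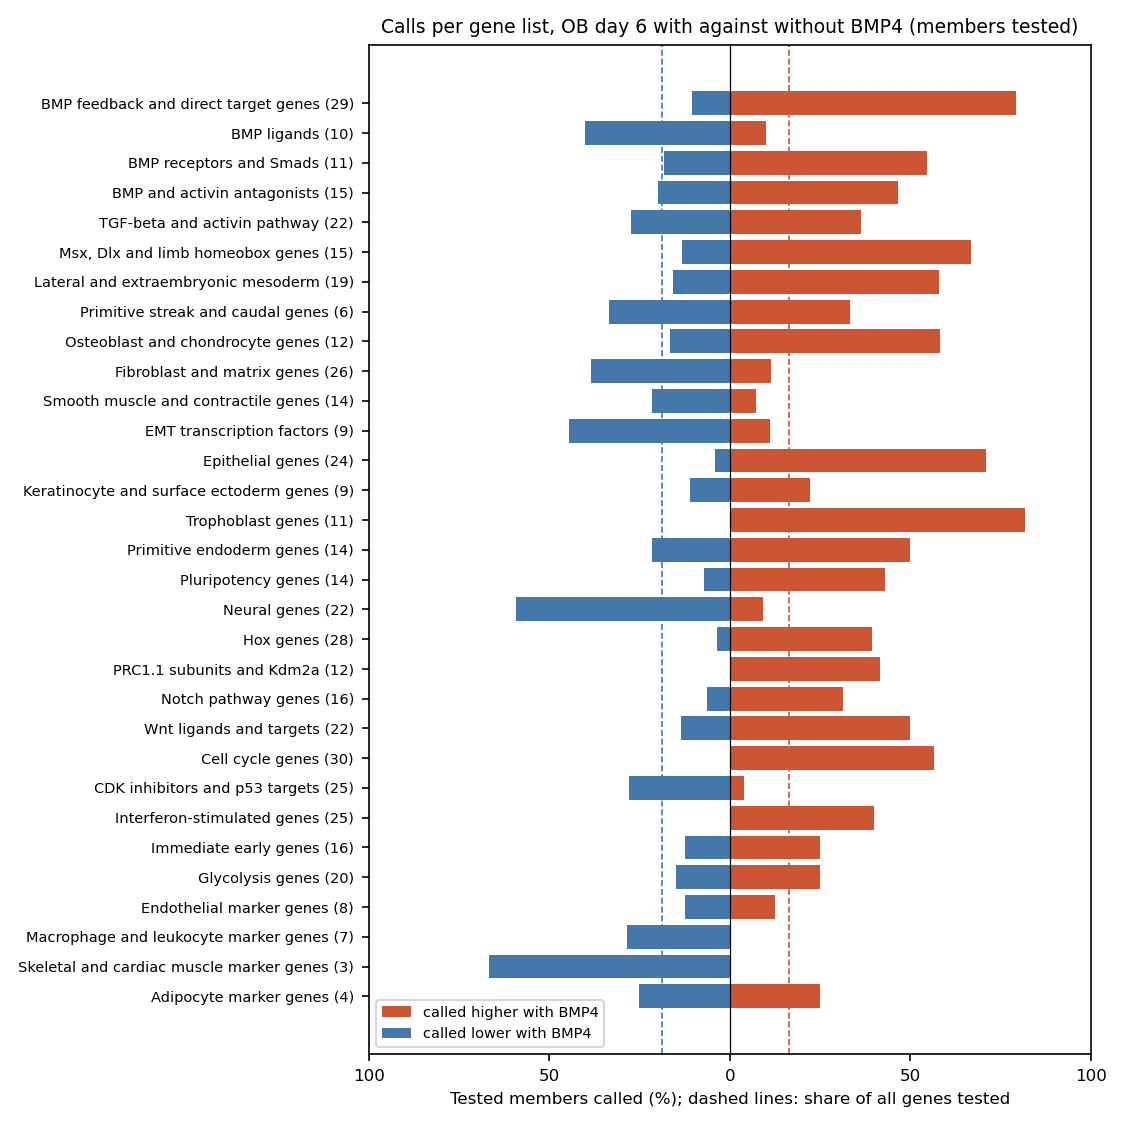
Share of the tested members of each gene list called higher (orange, right) or lower (blue, left) with BMP4 in OB cells at day 6; the number of members tested is in parentheses and the dashed lines mark 16.5% and 18.9%, the shares of all genes. BMP target, trophoblast, epithelial and Msx, Dlx and limb genes lie mostly to the right, and neural genes mostly to the left.

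The share of members called in either direction was not far from the 35.3% of all genes in several lists, whose counts are given below as a description: 28.6% of smooth muscle, 32.0% of CDK inhibitor and p53 target, 33.3% of keratinocyte, 37.5% of immediate early, 40.0% of glycolysis, 40.0% of interferon-stimulated, 41.7% of PRC1.1 and 42.9% of Hox genes. It was 89.7% of BMP feedback and direct target genes, 81.8% of trophoblast and 75.0% of epithelial genes. In every list, a member below 10 in all untreated libraries was tested only through the treated ones. Such a member could enter the counts and medians only as higher with BMP4, so these shares are a description and not independent support.

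The sequences just before the start of a few target genes that rose with BMP4 are given. RefSeq promoter windows (build GRCm38.p6) were found for 16 of the 29 tested BMP feedback and direct target genes. The 250 bases before the start (for Gata2 and Zeb2, those of each of their several starts) were searched on both strands for GGCGCC, a GC-rich element bound by Smad1 and Smad5, for the palindrome GTCTAGAC and for the Smad3-type element CAGACA. The GC-rich element was found in 6 genes (Gata2, Gata3, Id2, Id4 and Smad9, which rose, and Smurf2, which fell). It was in 9.59% of all 32851 windows, a share of windows and not of genes. The Smad3-type element was found in Smurf1, which also fell, against 17.1% of windows, and the palindrome in none, against 0.167%. A match describes these letters only. The windows of Id4 at chr13:48260866-48261115 (plus strand) and Smad9 at chr3:54755332-54755581 (plus strand) hold the GC-rich element, shown in capitals. Those of Smad6 at chr9:64022060-64022309 and Msx1 at chr5:37824586-37824835 (both minus strand), the genes with the largest changes among those with a window, hold none of the motifs. Each is given 5′ to 3′ on the strand of its gene, and none of these 4 overlaps an annotated exon.
Id4: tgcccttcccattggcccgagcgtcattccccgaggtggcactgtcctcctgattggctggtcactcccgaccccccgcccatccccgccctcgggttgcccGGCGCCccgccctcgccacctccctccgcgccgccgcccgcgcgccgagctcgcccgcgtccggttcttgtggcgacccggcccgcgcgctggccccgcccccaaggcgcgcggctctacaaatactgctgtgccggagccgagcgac
Smad9: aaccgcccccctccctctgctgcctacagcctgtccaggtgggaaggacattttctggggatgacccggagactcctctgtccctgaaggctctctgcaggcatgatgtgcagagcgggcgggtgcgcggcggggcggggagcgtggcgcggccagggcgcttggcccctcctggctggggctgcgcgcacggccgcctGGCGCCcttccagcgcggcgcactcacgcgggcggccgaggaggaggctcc
Smad6: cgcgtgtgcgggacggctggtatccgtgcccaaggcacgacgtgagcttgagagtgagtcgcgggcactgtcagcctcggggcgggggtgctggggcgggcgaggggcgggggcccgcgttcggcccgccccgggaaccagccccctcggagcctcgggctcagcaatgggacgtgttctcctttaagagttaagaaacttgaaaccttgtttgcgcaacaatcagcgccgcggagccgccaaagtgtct
Msx1: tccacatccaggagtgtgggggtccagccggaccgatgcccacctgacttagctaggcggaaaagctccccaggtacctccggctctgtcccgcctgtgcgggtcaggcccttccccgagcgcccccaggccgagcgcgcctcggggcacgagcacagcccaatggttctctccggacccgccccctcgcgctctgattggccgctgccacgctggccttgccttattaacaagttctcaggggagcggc

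The genes used to mark the response were all higher with BMP4 in OB cells, in both treated libraries. Id3 (chr4:136143497-136145755), which encodes an inhibitor of basic helix-loop-helix factors, was at 81, 49, 78 and 38 without BMP4 and at 1062 and 1194 with it, a log2 change of 4.24 ± 0.40 (adjusted p = 8.5e-07). Smad6 (chr9:63953076-64022059), an inhibitory Smad, was at 3, 2, 1 and 3 without BMP4 and at 678 and 743 with it (7.83 ± 0.97, adjusted p = 1.2e-05). The groups lay far apart for both genes. Nog (chr11:89300638-89302332), the secreted BMP antagonist Noggin, was at 2, 0, 0 and 1 and rose to 486 and 440 (8.21 ± 1.00, adjusted p = 1.0e-05). Tlx2 (chr6:83068324-83070293), a homeobox gene under BMP control in the primitive streak, was at 1, 0, 0 and 0 and rose to 582 and 779 (9.15 ± 1.55, adjusted p = 0.00020). Hand1 (chr11:57828705-57832818), a factor of extraembryonic mesoderm, heart and trophoblast giant cells, was listed at 0 in all 4 libraries without BMP4 and was at 524 and 669 with it (adjusted p = 3.5e-06). With the library that stood apart left out of the fit, the SE fell to 0.31 for Id3, 0.60 for Smad6, 0.74 for Nog and 0.84 for Tlx2, and all 5 stayed called. In bulk RNA, a change in the number of cells that express a gene and a change in RNA per cell cannot be told apart.

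Of 29 tested BMP feedback and direct target genes, 23 rose and 3 fell. Their median change was 4.22, or 3.85 without the 2 members listed at 0 in a group, beside −0.02 for all genes. The list includes the 5 markers above. Members below 10 in all untreated libraries, Smad6, Nog, Tlx2 and Hand1 among them, were tested only through the treated libraries. They could enter these figures only as higher with BMP4. The other Id genes moved alike. Id1 was at 35, 33, 71 and 41 without BMP4 and at 1230 and 1432 with it (4.92 ± 0.58). Id2 went from 84, 43, 62 and 32 to 996 and 1036 (4.27 ± 0.51), and Id4 from 5, 3, 2 and 2 to 55 and 90 (4.22 ± 0.93). The feedback inhibitors rose as well. Smad7, which blocks type I receptors, was at 22, 15, 15 and 19 and rose to 218 and 323 (3.85 ± 0.35). Bambi, a decoy receptor without a kinase domain, was at 12, 11, 15 and 9 and rose to 454 and 463 (5.19 ± 0.53). Smad9, a BMP-responsive Smad, rose from 32, 17, 24 and 12 to 220 and 248 (3.48 ± 0.59), and Atoh8, a basic helix-loop-helix factor induced by BMPs, from 5, 3, 2 and 0 to 48 and 32 (3.79 ± 0.79).

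Transcription factors made up most of the remaining targets that rose. Msx1, a homeobox repressor of limb and craniofacial mesenchyme, was at 9, 16, 12 and 11 without BMP4 and at 1718 and 1894 with it (7.14 ± 0.92, adjusted p = 1.7e-05), and its paralog Msx2 went from 9, 11, 12 and 4 to 390 and 350 (5.30 ± 0.87). Gata2 rose from 13, 25, 22 and 30 to 756 and 1115 (5.35 ± 0.69), and Gata3 from 29, 28, 23 and 31 to 232 and 298 (3.21 ± 0.40), both zinc finger factors of trophoblast and of blood lineages. Tbx3, a T-box repressor, rose from 37, 29, 35 and 30 to 614 and 936 (4.50 ± 0.44). The groups did not overlap for any of these. Sp7, the osteoblast factor osterix, was at 1 or below without BMP4 and at 40 and 55 with it (5.33 ± 0.31, adjusted p = 4.5e-09). Dlx3 was listed at 0 without BMP4 and was at 48 and 66 with it (adjusted p = 9.3e-07). Smaller rises were measured for Tbx20 (3.63 ± 0.61), Znrf3 (2.05 ± 0.33), Hey1 (1.80 ± 0.38, not called with the doubly labelled library kept in the fit as ODR with BMP4, adjusted p = 0.095) and Junb (1.15 ± 0.15). Slc39a14, a zinc transporter, fell by 1.02 ± 0.18. The ubiquitin ligases of the pathway had small log2 changes, Smurf1 of −0.42 ± 0.11 (adjusted p = 0.0089, and 0.090 without BMP4-treated replicate 1) and Smurf2 of −0.32 ± 0.12 (adjusted p = 0.040, and 0.062 to 0.39 without 1 of 4 libraries: untreated replicates 1, 2 or 4 or BMP4-treated replicate 2). Zeb2 (0.28 ± 0.15) and Runx2 (0.35 ± 0.21) did not pass the test.

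**Figure D2:**
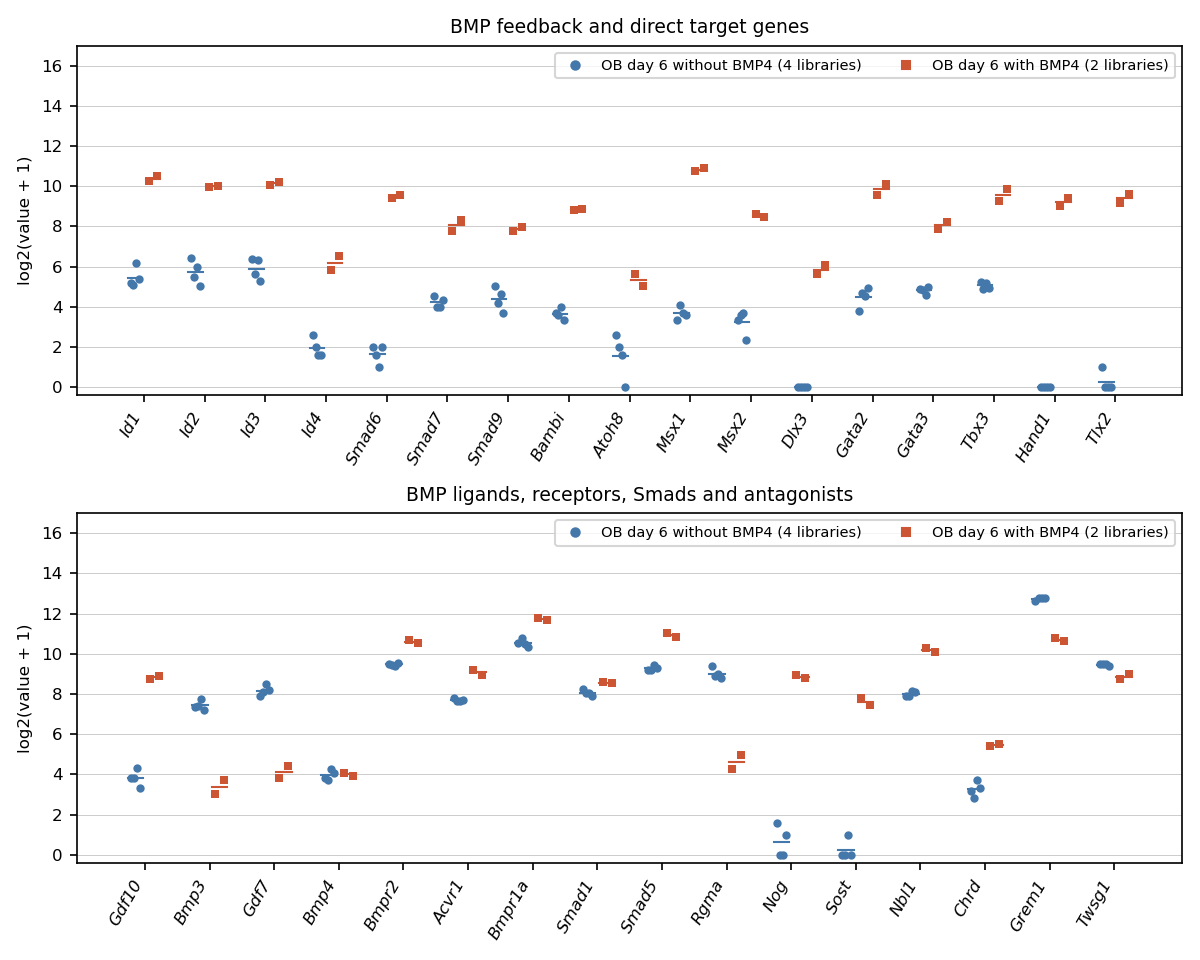
log2(value + 1) of BMP pathway genes in each OB library at day 6 (blue circles: 4 libraries without BMP4; orange squares: 2 with BMP4; short lines: group means). The Id genes, the inhibitory Smads, the Msx, Gata and Tbx genes and Nog are higher in both treated libraries, whereas Bmp3, Gdf7, Rgma and Grem1 are lower.

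Among 10 tested genes of the BMP and GDF ligand list, 1 rose and 4 fell (median −0.55). Gdf10, a BMP3-like ligand, rose from 13, 13, 19 and 9 to 428 and 480 (5.01 ± 0.77, adjusted p = 8.8e-05). Bmp3 itself, known to oppose other BMPs, fell from 165, 168, 214 and 148 to 7 and 12 (−4.09 ± 0.42, adjusted p = 2.1e-06). Gdf7 went from 234, 269, 356 and 293 to 13 and 20 (−4.06 ± 1.04, adjusted p = 0.0055). Gdf11 changed by −0.65 ± 0.17 (adjusted p = 0.0065) and Gdf6 by −1.77 ± 0.56 (adjusted p = 0.019). Without BMP4-treated replicate 1 the adjusted p was 0.056 for Gdf7 and 0.21 for Gdf6, and without replicate 2 it was 0.070 for Gdf11. That leave-out of replicate 1 called 2 ligand genes higher and 2 lower. The endogenous Bmp4 gene was at 13, 12, 18 and 16 without added BMP4 and at 16 and 14 with it (0.04 ± 0.40, adjusted p = 0.96). Bmp2, Bmp5, Bmp7 and Bmp1 did not pass either (adjusted p from 0.085 to 0.94). Bmp1 stands in the list by its name but encodes a metalloprotease and not a ligand of this family.

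Of 11 tested receptor, co-receptor and Smad genes, 6 rose and 2 fell (median 0.51). The type II receptor gene Bmpr2 rose from 710, 696, 679 and 742 to 1621 and 1478 (1.13 ± 0.11, adjusted p = 9.1e-07), and the type I receptor gene Acvr1 from 218, 201, 198 and 207 to 578 and 498 (1.38 ± 0.16). Smad5, a signal-carrying Smad, rose from 576, 587, 700 and 617 to 2122 and 1854 (1.68 ± 0.24). Both treated libraries were above all 4 untreated libraries for each of these. The type I receptor gene Bmpr1a rose by 1.19 ± 0.31 (adjusted p = 0.0062), Smad1 by 0.51 ± 0.14 (adjusted p = 0.0082) and Bmpr1b by 1.72 ± 0.62 (adjusted p = 0.037). Each of these 3 lost its call when a treated library was left out: without replicate 1 the adjusted p was 0.0502 for Bmpr1a, 0.061 for Smad1 and 0.13 for Bmpr1b, and the list held 3 called rises. Without replicate 2 it was 0.051 for Smad1 and 0.17 for Bmpr1b, and leaving out untreated replicate 2, 3 or 4 also gave Bmpr1b values of 0.054 to 0.081. The co-receptors of the repulsive guidance family fell: Rgma from 668, 471, 510 and 446 to 18 and 30 (−4.42 ± 0.57, adjusted p = 1.7e-05) and Rgmb from 457, 348, 472 and 464 to 96 and 106 (−2.09 ± 0.23). The shared partner Smad4 changed by 0.12 ± 0.11 (adjusted p = 0.44), and Acvr2a and Eng did not pass.

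Secreted antagonists moved in both directions: 7 of 15 tested members rose and 3 fell (median 0.86). Besides Nog, Sost (sclerostin) went from 1 or below to 220 and 174 (7.37 ± 0.67, adjusted p = 6.2e-07). Nbl1 rose from 239, 237, 285 and 270 to 1268 and 1070 (2.18 ± 0.27). Sostdc1 rose by 3.80 ± 0.60, Chrd, the antagonist chordin, by 2.21 ± 0.44 and Bmper by 1.53 ± 0.31. Grem1 (gremlin 1) had the opposite sign, with 6248, 7097, 7097 and 7097 without BMP4 and 1752 and 1596 with it (−2.04 ± 0.59, adjusted p = 0.012). The Grem1 call was lost without either treated library (adjusted p = 0.060 and 0.088), although the groups did not overlap. Crim1 fell by 0.76 ± 0.15 and Twsg1 by 0.60 ± 0.12. Fst, Fstl1, Fstl3, Chrdl1 and Htra1 did not pass.

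In the TGF-beta and activin branch, 8 of 22 members rose and 6 fell (median −0.09). Skil, a feedback repressor of Smad2 and Smad3 activity, rose from 185, 236, 214 and 252 to 1022 and 1040 (2.22 ± 0.16, adjusted p = 6.6e-08). The ligand genes Tgfb3 (2.26 ± 0.30) and Tgfb1 (1.07 ± 0.16) and the type I receptor gene Tgfbr1 (1.37 ± 0.20) rose. The type II receptor gene Tgfbr2 fell by 1.17 ± 0.17, and Tgfbr3, which encodes the co-receptor betaglycan, fell from 167, 171, 165 and 142 to 22 and 22 (−2.81 ± 0.31). Smad3, the signal-carrying Smad of this branch, fell from 426, 323, 380 and 344 to 89 and 122 (−1.80 ± 0.21, adjusted p = 6.5e-06). Ltbp2, which encodes a matrix protein of the latent TGF-beta binding family, fell by 2.2 ± 0.30.

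Developmental gene lists, some of which share members with the direct targets, moved in both directions. Of 15 Msx, Dlx and limb homeobox genes, which include Msx1, Msx2 and Dlx3 from above, 10 rose and 2 fell (median 1.95). Dlx2 was at 1 or below without BMP4 and at 168 and 182 with it (7.21 ± 1.00), and Prrx2, a gene of limb and craniofacial mesenchyme, went from 4, 4, 4 and 2 to 334 and 334 (6.25 ± 0.69). Shox2, in contrast, fell by 1.68 ± 0.22. Without untreated replicate 2 or 3 or BMP4-treated replicate 2, 1 fall was called in this list. Of 19 lateral and extraembryonic mesoderm genes, which include Hand1, Tlx2, Tbx3 and Tbx20 from above, 11 rose and 3 fell (median 1.22), and 7 rises were called without BMP4-treated replicate 1. Tbx2 rose from 30, 29, 23 and 16 to 789 and 841 (5.04 ± 0.49), Gata4 from 0, 2, 6 and 3 to 62 and 96 (4.69 ± 0.78) and Gata6 by 2.09 ± 0.34. Twist1, a mesodermal basic helix-loop-helix gene, fell from 430, 552, 525 and 394 to 174 and 163 (−1.48 ± 0.17), and leaving out BMP4-treated replicate 2 left 1 of the 3 falls.

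Only 6 of 20 primitive streak and caudal genes reached the level for testing, of which 2 rose and 2 fell. Wnt3, the ligand that initiates the streak in embryos, went from 1, 2, 3 and 2 to 276 and 256 (6.52 ± 0.86, adjusted p = 2.2e-05). Evx1 was listed at 0 without BMP4 and was at 11 and 16 with it, and Cdx4 was at 11, 14, 8 and 7 without BMP4 and listed at 0 with it. Without either treated library 1 fall was called. The streak gene T was at 1 or below without BMP4 and at 1 and 9 with it, and Cdx2 was at 1 or below in all 6 libraries. Of 12 osteoblast and chondrocyte genes, 7 rose and 2 fell (median 0.90), and without either treated library 4 rises and 1 fall were called (1 fall also without untreated replicate 4). The list includes Sp7 and Sost. Col9a1, a cartilage collagen gene, rose by 2.36 ± 0.56 and the chondrocyte factor Sox9 from 43, 40, 26 and 19 to 241 and 148 (2.60 ± 0.64, adjusted p = 0.0044, and 0.062 without BMP4-treated replicate 1), whereas its partner Sox5 fell by 1.85 ± 0.35. Of 28 Hox genes, 11 rose and 1, Hoxd8, fell (median 0.74). The leading genes were Hoxa3 (2.39 ± 0.38), Hoxb6 (1.72 ± 0.28), Hoxb5 (1.16 ± 0.21) and Hoxb2 (2.17 ± 0.43). Without BMP4-treated replicate 1, 6 Hox rises were called, and without replicate 2 the adjusted p of Hoxd8 was 0.30.

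Of 22 Wnt ligands and targets, 11 rose and 3 fell (median 1.21). The secreted Wnt inhibitor genes Notum (6, 4, 5 and 5 without BMP4, 278 and 263 with it, 5.51 ± 0.59) and Dkk1 (4 or below without, 58 and 80 with it, 5.28 ± 0.62) rose with the ligand genes Wnt3 and Wnt11 (3.56 ± 0.43). The Wnt-responsive factors Tcf7 (2.91 ± 0.50) and Lef1 (3.38 ± 0.81) rose, and the target gene Axin2 was at 234, 165, 164 and 134 without BMP4 and at 199 and 220 with it (0.29 ± 0.27, adjusted p = 0.42). Dkk3 fell from 482, 598, 430 and 414 to 112 and 84 (−2.28 ± 0.23), and Wnt5b fell by 2.69 ± 0.52. Of 16 Notch pathway genes, 5 rose and 1 fell (median 0.56), a called share of 37.5% that is near the 35.3% of all genes. The target gene Hes1 rose from 32, 22, 47 and 10 to 151 and 278 (3.03 ± 0.52), with Nrarp, a feedback inhibitor (3.54 ± 0.62), and Lfng, a Notch glycosyltransferase (2.65 ± 0.57). The ligand gene Dll4 fell by 2.41 ± 0.55 (adjusted p = 0.0025, and 0.059 without BMP4-treated replicate 1).

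Epithelial genes were higher with BMP4: of 35 listed, 11 were not tested, and of the 24 tested 17 rose and 1 fell. The median was 2.31, or 2.13 without the 2 members listed at 0 in a group. Members below 10 in all untreated libraries, such as Cldn4, Dsg2 and Cdh1, were tested only through the treated libraries. Such members could enter these figures only as higher with BMP4. Cldn4, a tight junction claudin, was at 2, 1, 4 and 4 without BMP4 and at 657 and 1148 with it (7.96 ± 1.08, adjusted p = 2.8e-05). Cldn3 was listed at 0 without BMP4 and was at 55 and 83 with it. The desmosomal cadherin gene Dsg2 rose from 6, 7, 6 and 7 to 86 and 184 (4.08 ± 0.49, adjusted p = 8.4e-06) and Ovol2, an epithelial zinc finger repressor, from 1 or below to 30 and 32 (4.75 ± 0.58). The one member that fell was Grhl2, a grainyhead factor of epithelial cells, from 19, 16, 32 and 22 to 3 and 5 (−2.2 ± 0.50). Genes chosen after their values were seen, as the best known of the list, were Cdh1 (E-cadherin), at 2, 2, 0 and 0 without BMP4 and at 34 and 107 with it (5.15 ± 0.77), Krt8, at 12, 5, 13 and 8 and at 136 and 404 (4.56 ± 0.72), and Epcam, at 8, 10, 14 and 8 and at 48 and 86 (2.60 ± 0.90, adjusted p = 0.031).

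The size of the epithelial rise differed between the treated libraries. In all 17 called epithelial genes, BMP4-treated replicate 2 was higher than replicate 1, while this held for 1107 of the 2082 genes called higher in all. Without replicate 2, 9 epithelial rises were called, and the Epcam call was also lost without treated replicate 1 or untreated replicate 1 or 4 (adjusted p from 0.056 to 0.21). Of 11 trophoblast genes, a list that shares Dlx3, Hand1, Gata2 and Gata3 with the lists above, 9 rose and none fell (median 3.81, or 3.21 without the 2 members listed at 0 in a group), and again all 9 were higher in replicate 2. Tead4, a trophectoderm factor, rose from 34, 17, 26 and 19 to 111 and 126 (2.30 ± 0.26). Peg10, an imprinted gene needed for placenta formation that was named after its values were seen, went from 826, 510, 831 and 507 to 5077 and the ceiling of 18690, a log2 change of 3.91 ± 0.58 that includes a value at the ceiling. Of 19 trophoblast genes listed, 8 were below the level for testing, Elf5, Tpbpa and Prl3d1 among them. Of 9 keratinocyte and surface ectoderm genes, 2 rose and 1 fell (median 0.21): Sfn rose by 2.99 ± 0.51, and Trp63, the p63 factor of stratified epithelia, went from 91, 96, 80 and 99 to 8 and 1 (−4.44 ± 1.09, adjusted p = 0.0040, and 0.099 without BMP4-treated replicate 2). The other rise, Tfap2c, was called at an adjusted p of 0.031 and not called without treated replicate 2 or untreated replicate 2, 3 or 4 (0.060 to 0.45). Of 14 primitive endoderm genes, 7 rose and 3 fell (median 0.42), with 1 fall called without untreated replicate 1 or 3 or treated replicate 1. Sox17, an endoderm factor, rose from 1 or below to 124 and 140 (6.55 ± 0.87), and the laminin gene Lama1 from 74, 58, 41 and 38 to 1140 and 1281 (4.54 ± 0.62). The 3 falls were Dab2 (−1.77, adjusted p = 0.0042), Col4a1 (−1.09, adjusted p = 0.031) and Col4a2 (−0.94, adjusted p = 0.033).

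**Figure D3:**
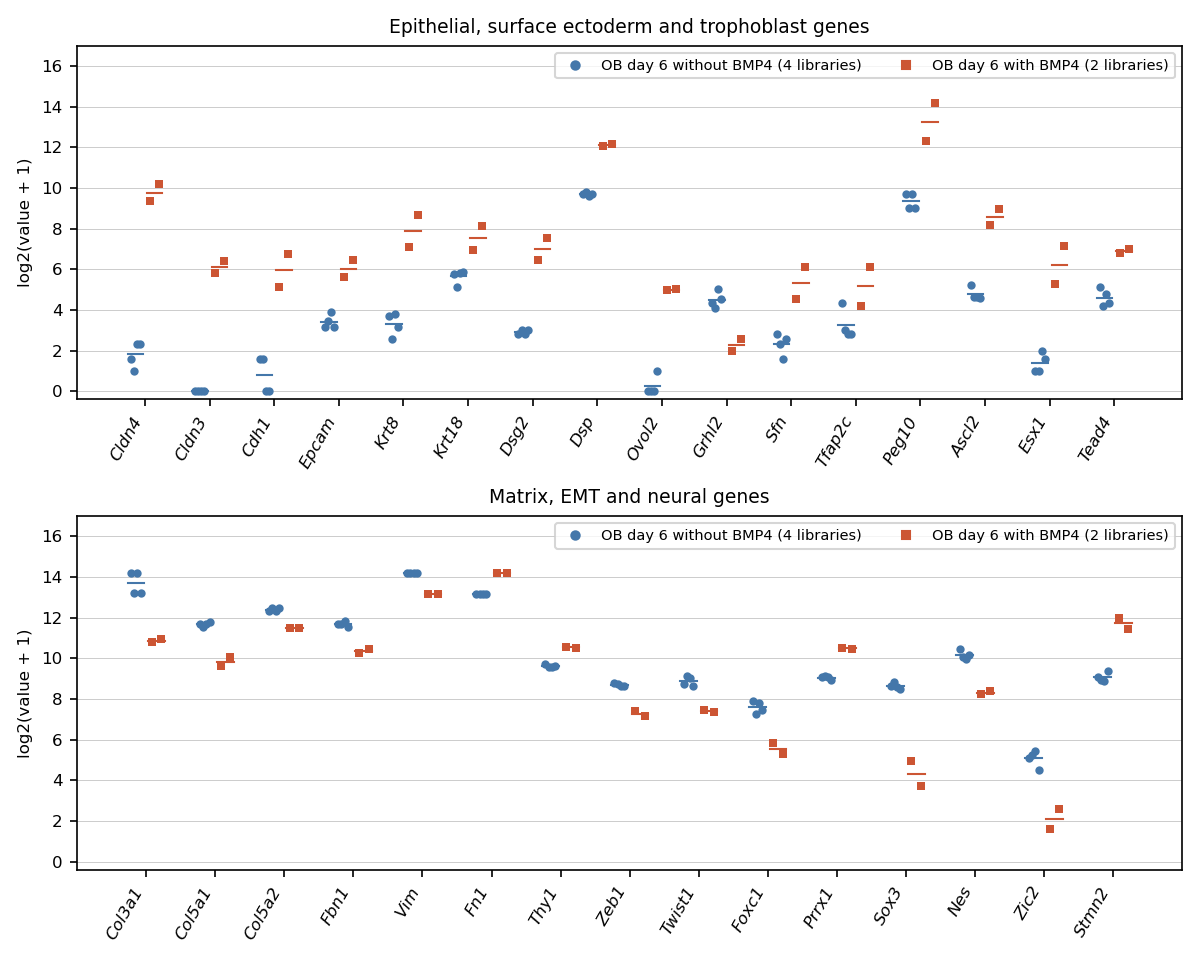
log2(value + 1) of epithelial, surface ectoderm and trophoblast genes (top) and of matrix, epithelial-mesenchymal transition and neural genes (bottom) in each OB library at day 6; blue circles are the 4 libraries without BMP4, orange squares the 2 with BMP4, and short lines group means. In the top panel all genes but Grhl2 have higher means with BMP4; in the bottom panel Fn1, Thy1, Prrx1 and Stmn2 are higher and the rest lower.

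Mesenchymal genes were lower in part. Of 26 fibroblast and matrix genes, 10 fell and 3 rose (median −1.09). The collagen genes Col5a1 (3317, 3007, 3317 and 3488 without BMP4, 783 and 1062 with it, −1.84 ± 0.39) and Col5a2 (−0.89 ± 0.14) fell, and Fbn1, the fibrillin of elastic microfibrils, fell from 3325, 3325, 3700 and 3016 to 1244 and 1380 (−1.35 ± 0.26). Col3a1 was at the ceiling or at 9314 without BMP4 and at 1786 and 1942 with it, a change of −2.82 ± 0.57 that includes values at the ceiling. Thy1, a fibroblast surface protein, rose from 831, 756, 770 and 792 to 1510 and 1472 (0.92 ± 0.16), and S100a4 by 1.53 ± 0.29. The third rise was Fn1, from 9308 in all 4 untreated libraries to the ceiling in both treated ones (adjusted p = 0.012, a call lost without either treated library). Vim moved the opposite way between the same values, from the ceiling in all 4 to 9308 in both. The size of either change includes values at the ceiling. Each of the 6 libraries held only 9 or 10 genes at the ceiling, and whether these changes of Fn1 and Vim are linked through that scaling was not tested. The number of falls in this list was 17 with the library that stood apart left out of the fit, and 6 without either treated library. Of 9 epithelial-mesenchymal transition factors, 4 fell and 1 rose (median −0.69): Foxc1 (−2.03 ± 0.23), Twist1 and Zeb1 (439, 424, 398 and 395 without BMP4, 166 and 140 with it, −1.43 ± 0.32) fell, and Prrx1 rose by 1.43 ± 0.22. Of 14 smooth muscle and contractile genes, 3 fell and 1 rose, led by Synpo2 (−3.53 ± 0.44) and the intermediate filament gene Des, from 1968, 1935, 1890 and 1890 to 380 and 386 (−2.32 ± 0.47). The rise was not called without treated replicate 1.

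Neural genes were lower: 13 of 22 fell and 2 rose (median −1.0). Sox3, a neural progenitor SoxB1 factor, fell from 393, 450, 382 and 364 to 30 and 12 (−4.31 ± 0.63, adjusted p = 5.3e-05). Zic2 fell by 2.99 ± 0.47, and Nes, the intermediate filament of neural progenitors, from 1392, 1078, 996 and 1140 to 300 and 329 (−1.86 ± 0.28). The groups did not overlap for any of these genes. The members that rose were Stmn2, a microtubule regulator of neurons, from 540, 490, 473 and 652 to 4005 and 2807 (2.65 ± 0.30), and Pax3, from 2, 1, 4 and 2 to 12 and 15 (2.23 ± 0.45).

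Pluripotency genes were mostly below the level for testing. Of 34 listed, 20 were not tested, Nanog and Sox2 among them: Nanog was at 3 or below without BMP4 and at 0 and 7 with it, and Sox2 between 2 and 4 without and at 1 and 5 with it, where the mESC library had 2802 and 1508. Of the 14 tested, 6 rose and 1 fell (median 0.58). Klf4, a reprogramming factor of epithelial and pluripotent cells, rose from 108, 68, 67 and 78 to 400 and 511 (2.51 ± 0.33, adjusted p = 2.3e-05) and Klf5 by 0.85 ± 0.21. Tbx3 also stands in this list. Esrrb was at 6 or below without BMP4 and at 13 and 30 with it (2.78 ± 0.82, adjusted p = 0.013, and 0.16 without treated replicate 2), and 3 rises of the list were called without that library. The 1 gene that fell was Klf2, from 21, 28, 8 and 19 to 5 and 7 (adjusted p = 0.025). The Klf2 call was lost without untreated replicate 1 or 2 or either treated library (0.052 to 0.17). Of 12 genes for PRC1.1 subunits and Kdm2a, 5 rose (median of all 12, 0.12): Usp7 (0.44 ± 0.10), Bcor (0.63 ± 0.17), Pcgf1 (1.68 ± 0.48), Yaf2 (0.58 ± 0.17) and Rybp (0.45 ± 0.17). Without BMP4-treated replicate 2, none of the 5 was called (adjusted p from 0.057 to 0.37), and without replicate 1, 3 were. The Rybp call was also lost without untreated replicate 2, 3 or 4.

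Proliferation genes were moderately higher. Of 30 cell cycle genes, 17 rose and none fell (median 0.56). Rrm2, a subunit of ribonucleotide reductase, rose from 508, 395, 428 and 364 to 1394 and 1434 (1.75 ± 0.15, adjusted p = 4.3e-07), the replication factor Gins2 from 140, 118, 140 and 106 to 532 and 478 (2.0 ± 0.23), Pcna by 0.87 ± 0.12 and the mitotic kinase gene Cdk1 by 0.63 ± 0.09. The number of rises was 9 without treated replicate 1 and 10 without replicate 2. Of 25 CDK inhibitor and p53 target genes, 7 fell and 1 rose (median −0.35). Ccng1, a p53 target, fell from 5070, 4213, 7086 and 5070 to 2532 and 3006 (−0.93 ± 0.18), and Cdkn2d, which encodes the CDK inhibitor p19, rose by 1.14 ± 0.23. Without treated replicate 1, 1 of the falls was called. Among 16 immediate early genes, 4 rose and 2 fell. Dusp1, a phosphatase of MAP kinases, rose from 37, 32, 59 and 46 to 390 and 494 (3.34 ± 0.41), whereas Jun fell from 858, 848, 762 and 752 to 392 and 368 (−1.08 ± 0.15). Without treated replicate 2 or untreated replicate 2, 2 immediate early rises were called, and 1 fall without treated replicate 2. Of 20 glycolysis genes, 5 rose and 3 fell (median 0.22), with 3 rises called without treated replicate 2 and 1 fall without treated replicate 1 or untreated replicate 4. Slc2a3, a glucose transporter, rose from 94, 79, 101 and 107 to 357 and 538 (2.2 ± 0.42).

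The largest changes by the naming rule (log2 change, groups not overlapping, a group mean of at least 100) included genes outside the BMP pathway lists. Among those higher with BMP4 were Chdh, which encodes choline dehydrogenase of mitochondria, from 2 or below to 253 and 448 (8.0 ± 1.11), the olfactory receptor gene Olfr78, from 4 or below to 285 and 328 (7.68 ± 1.80), the connexin gene Gja3, from 4 or below to 268 and 222 (7.36 ± 1.21) and the atypical kinesin gene Kif26a, from 12, 4, 8 and 5 to 1046 and 1171 (7.17 ± 0.83). Sct, the hormone secretin, was listed at 0 without BMP4 and was at 109 and 376 with it. The largest fall by this rule was that of Thbs4, the matrix protein thrombospondin 4, which was at 952, 1106, 693 and 760 without BMP4 and at 0 and 4 with it (−8.59 ± 1.14, adjusted p = 2.4e-05). Col14a1, a fibril-associated collagen, fell from 1621, 1668, 1856 and 1820 to 45 and 55 (−5.10 ± 0.54), and Egflam, the matrix protein pikachurin, from 250, 180, 192 and 230 to 3 and 2 (−5.94 ± 0.87). Pde1a, a calmodulin-dependent phosphodiesterase, fell from 1659, 2174, 1570 and 2008 to 48 and 37 (−5.41 ± 0.71). The others of the 12 largest falls were A2m, Aadac, B3galt2, Negr1, Tub, Nts, Npbwr1 and a gene that the table names Trim61 but whose Ensembl identifier is that of Apela in GENCODE, with log2 changes from −5.95 to −4.98. The lowest untreated value of these 12 genes was 76 and the highest treated value 55.

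Markers of other cell types were summed as a check of the cultures. Of 8 tested endothelial markers 1 rose (Erg, 2.90 ± 0.58) and 1 fell (Tek, −2.43 ± 0.55), and the defining genes Pecam1 and Cdh5 were below the level for testing. The summed level of the endothelial list was 423 to 521 without BMP4 and 381 to 400 with it. Of 7 macrophage and leukocyte markers none rose and 2 fell, Cd68 (−1.69 ± 0.28) and Mpeg1 (−1.71 ± 0.49, adjusted p = 0.011, and 0.10 without treated replicate 2). Their summed level was 906 to 1081 without BMP4 and 450 to 504 with it. The muscle list held 3 tested genes, of which 2 fell, Des among them. The adipocyte list held 4, of which Pparg rose (2.90 ± 0.38) and Fabp4 fell (−1.97, adjusted p = 0.023). Their part in the results above was not tested.

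The same treatment was given to cells of the combination labelled ODR, for which 1 library with BMP4 and 2 without it at day 6 remained after the library with both labels was left out. A test of the difference between the BMP4 effects in OB and ODR called 170 genes (1.34%), 98 with the higher log2 change in OB (0.774%) and 72 with the lower (0.569%). The number was 474 with the OA library that stood apart left out of the fit, 54 without BMP4-treated OB replicate 2, 68 when ODR replicate 2 was dropped, and 109 when either ODR replicate 1 or untreated OB replicate 3 was dropped. None of the 29 BMP feedback and direct target genes was called in it, but with that OA library left out 5 were: Hand1, Msx1, Sp7 and Tbx3 with the higher change in OB, and Hey1 with the lower. With a pseudocount of 10, or with the doubly labelled library kept under both labels, 4 were called. In ODR cells 20 of them rose and 1 fell (background 5.51% and 6.91% of all genes), with a median of 3.26 beside 4.22 in OB. Id3 was at 20 and 22 without BMP4 and 780 with it in ODR, and the difference of effects, OB minus ODR, was −0.91 ± 0.69 (adjusted p = 0.73). For Smad6 it was −1.55 ± 1.68 (adjusted p = 0.85), and for Nog 0.64 ± 1.73 (adjusted p = 0.96). Hand1 and Tlx2 were each listed at 0 in ODR cells without BMP4 and at 30 with it, beside values above 500 in both treated OB libraries. Their differences of effect were not called in the pooled fit (adjusted p = 0.33 and 0.65), and with the OA library left out the adjusted p was 0.00047 for Hand1 and 0.14 for Tlx2.

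The treated ODR arm is 1 library, assumed in the test to vary like the libraries of the other groups, so the called differences set that library apart and have no replicate behind them in ODR. In ODR cells 1 of 24 epithelial genes rose with BMP4 and 2 fell, with a median of 0.05 beside 2.31 in OB. Dsg2 was at 15 and 7 without BMP4 and at 1 with it in ODR, and the difference of effects was 6.58 ± 0.84 (adjusted p = 0.00071). Ovol2 was listed at 0 in all 3 ODR libraries (adjusted p of the difference 0.025, and 0.066 to 0.11 without ODR replicate 1 or 2 or BMP4-treated OB replicate 2), and these were the 2 members called. Of 25 interferon-stimulated genes, 10 rose in OB cells and none fell (median 0.90), all 10 higher in treated replicate 2 than in replicate 1. In ODR cells none rose and 13 fell (median −1.59). The difference was called for 12 of the 25. Isg15, a ubiquitin-like antiviral protein, was at 38, 28, 31 and 25 without BMP4 and at 72 and 172 with it in OB (1.85 ± 0.51, adjusted p = 0.0088), and at 120 and 207 without and 20 with it in ODR (difference 4.77 ± 0.88, adjusted p = 0.0089). All 12 had the higher change in OB. Rtp4 (difference 4.47 ± 0.70) and Trim25, a ligase of the RIG-I pathway (1.47 ± 0.26), differed likewise. In the library with both labels Isg15 was at 115, near the untreated ODR values. The counts rest on few libraries. Without treated OB replicate 2, 2 interferon genes rose in OB, Isg15 not among them (adjusted p = 0.19), and 4 differed; without untreated OB replicate 4, 5 rose. Without ODR replicate 2, 5 differed (Isg15 at 0.055), and 3 or 2 differed when the library with both labels was kept under both or only under its label with BMP4. Other genes called in the test of the difference, named after the values were seen, included the homeobox gene Tlx1, listed at 0 in untreated OB cells, at 64 and 104 with BMP4 and at 1 or below in ODR (adjusted p = 9.1e-06). Itga9, an integrin subunit, was at 119, 120, 120 and 122 without BMP4 and at 69 and 152 with it in OB, and at 251 and 292 without and 18 with it in ODR (3.61 ± 0.38, adjusted p = 6.8e-05, and 0.35 or 0.41 with the library of both labels kept under both or only under its label with BMP4).

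**Figure D4:**
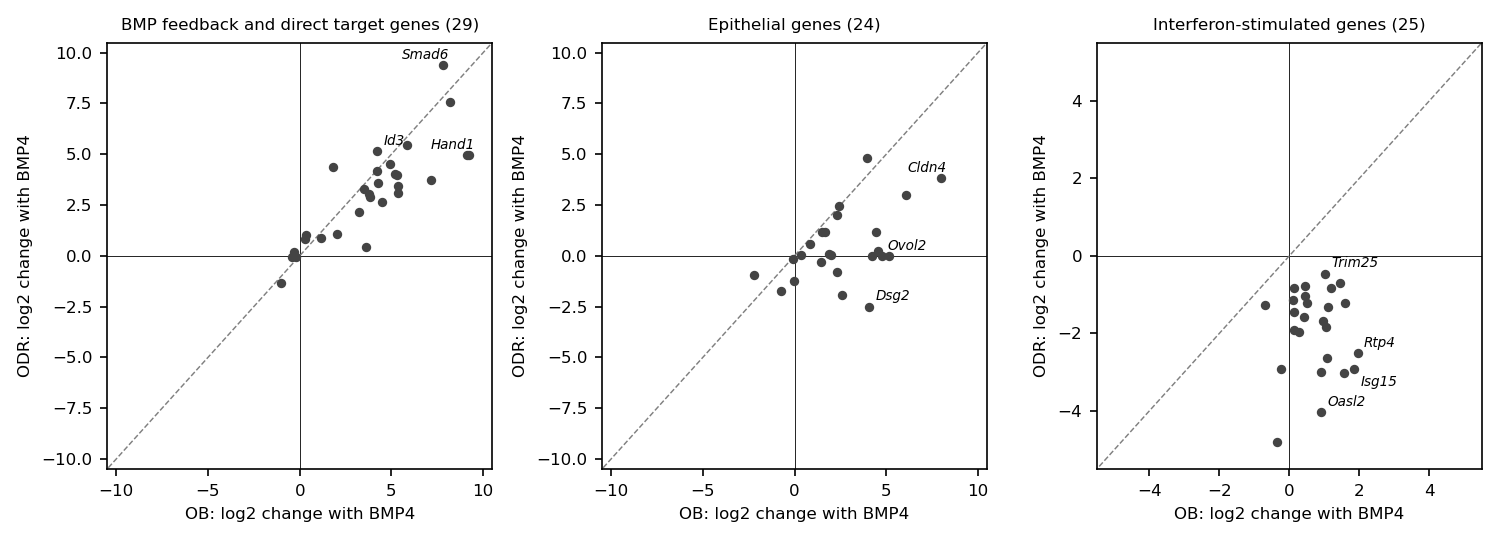
log2 change with BMP4 at day 6 in ODR cells (vertical axis, 1 treated and 2 untreated libraries) against OB cells (horizontal axis, 2 treated and 4 untreated), one point per tested gene of 3 lists; the dashed line marks equal changes. Many BMP targets are above 0 on both axes, some of them away from the line (Msx1 at 7.14 in OB and 3.72 in ODR, Hey1 at 1.80 and 4.39), epithelial genes lie mostly below it, and interferon-stimulated genes below 0 in ODR with most of them above 0 in OB.

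Across the series the markers were high in OB cells at day 6 with BMP4 and lower in nearly all libraries labelled without it. Hand1 was between 0 and 2 in every library labelled without BMP4 except OA day 14 replicate 2, where it was 51. Nog reached 16 in OB cells at day 1 without BMP4 and 30 in that OA library. Smad6 was at most 7 at days 1, 6 and 9 without BMP4. Id3 was at 53 and 56 in OB cells at day 1, at 38 to 81 at day 6 and at 658 to 946 at day 14 without BMP4, below the 1062 and 1194 of the treated day 6 libraries. Id1 was likewise at 514 to 807 and Smad6 at 36 to 101 in the OB day 14 libraries, while Nog was at 2 to 5 and Hand1 at 0 or 1 there. At day 9 Id1 went the other way, at 9301 in the ODDR and ODB libraries labelled without BMP4 and at 5616 in the library with it. The MEF library had Id3 at 422 and Smad6 at 51, and the mESC library had Id3 at 64 and Smad6 at 22, both with Hand1 listed at 0.

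**Figure D5:**
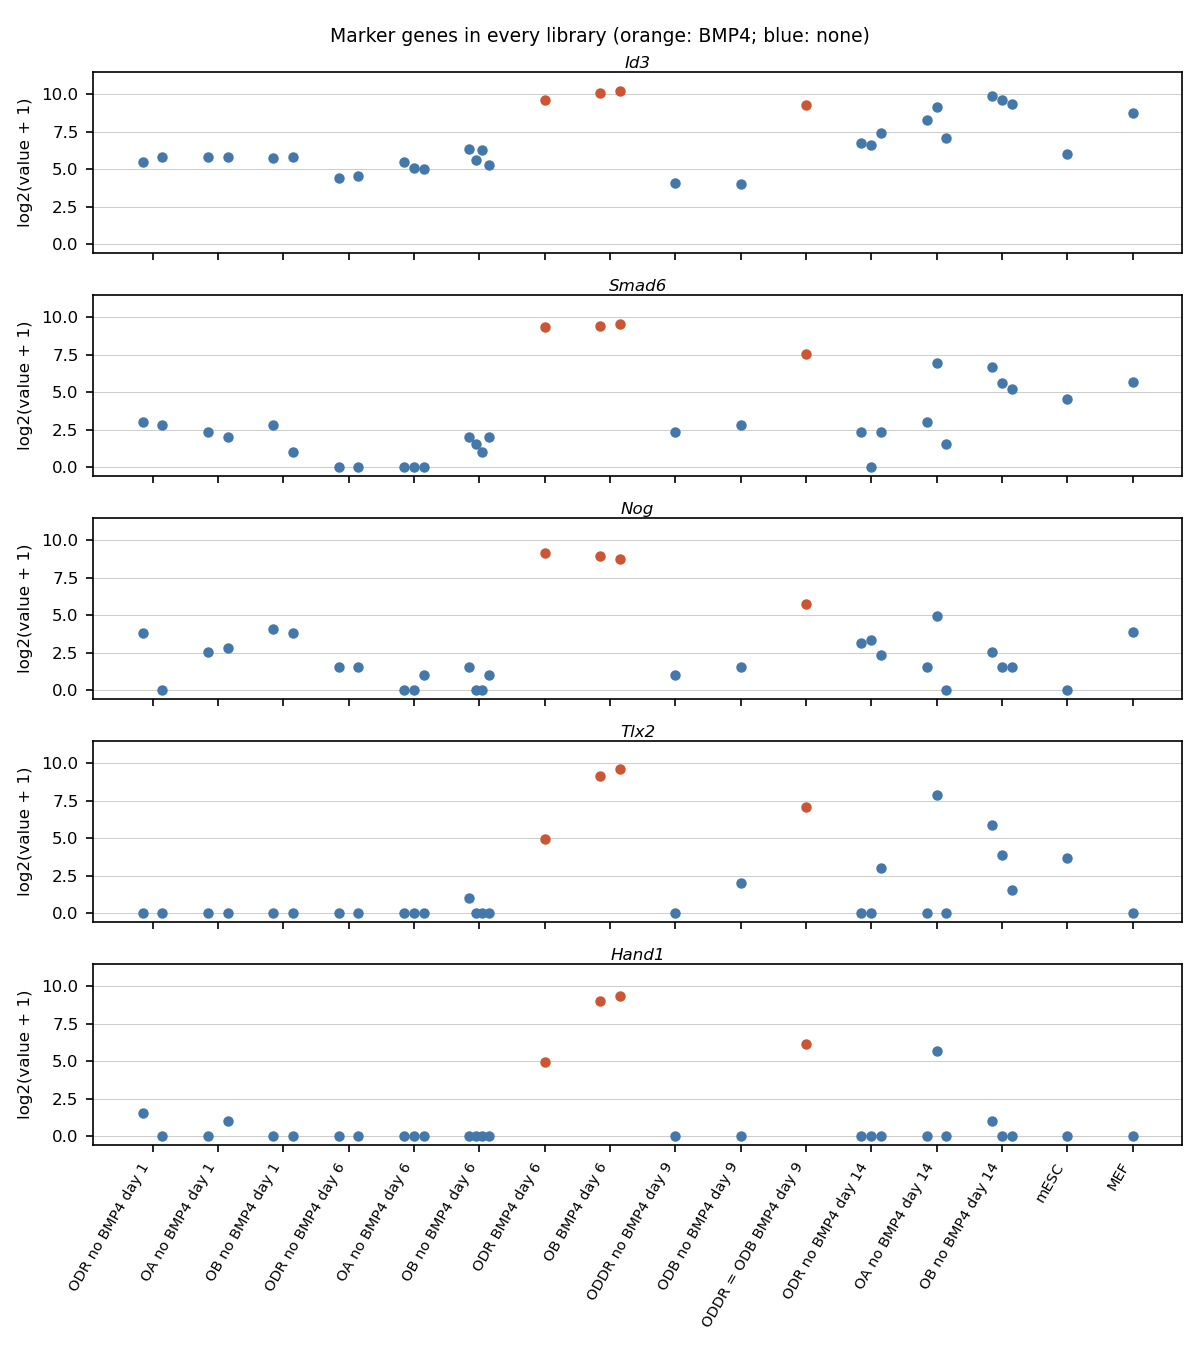
log2(value + 1) of the 5 markers in each library by factor combination, BMP4 and day (orange: BMP4; blue: none); the day 6 library deposited as ODR with and without BMP4 is left out, and the day 9 library with BMP4, with identical values under ODDR and ODB, is drawn once. The 2 OB day 6 libraries with BMP4 are the highest for Id3, Smad6, Tlx2 and Hand1, and the ODR library with BMP4 is the highest for Nog.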

How the data were processed

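Libraries were prepared from oligo-dT enriched RNA with a VAHTS mRNA-seq kit, per the labels' protocols. The deposited values are scores: whole-number normalized tag counts per gene, their normalization method being not given in the sources used here. Tools named in the submitters' processing notes are bcl2fastq, Bowtie2 2.2.5, RSEM, with the build mm10. Totals of the 6 libraries were 4362734 to 4393668 after that normalization, so sequencing depth is unknown, and 17 genes reached the ceiling of 18690 in at least 1 of them. The values are not read counts, so limma 3.58.1 (R 4.3.3) was run on log2(value + 1) (empirical Bayes, two-sided) over 27 libraries of 11 groups with 16 residual degrees of freedom. Genes needed at least 10 in 2 of the 6 libraries. The scripts were tested on simulated data. The difference between OB and ODR was a contrast of the same fit. Genes named are the markers, all tested members of the 4 BMP lists (targets, ligands, receptors and Smads, antagonists), up to 4 called members per direction of each other list by adjusted p, and the 12 largest called, non-overlapping changes per direction with a group mean of at least 100, without predicted genes. A few genes of this rule are not reported here. Tcf7, Lef1, Axin2, Cdh1, Krt8, Epcam, Peg10, Esrrb, Rybp, Tlx1, Itga9, Reln and the untested genes given with values fall outside this rule and were chosen after their values were seen. Coordinates are mm10. Members, lists and tests were chosen with earlier results of these data known. Alternatives were other pseudocounts, filters, scalings and fits, a replicate block, and leaving out in turn each of the 6 OB day 6 libraries, the 2 untreated ODR day 6 libraries and OA day 14 replicate 2.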

Additional observations from a re-analysis of the deposited data

Results flagged for a closer look

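In 20 of 195 genes checked, 1 of the 4 OB libraries without BMP4 at day 6 lay apart from the other 3 by Dixon's criterion. Chance meets it in about 1 in 20 groups of continuous values. Where the other 3 values are equal, any differing value meets it, and that rate does not hold. This was so for Tlx2, Dlx2, Sp7, Sost, Ovol2, Chdh, Olfr78, Gja3, Chrdl1, Prrx2, Grem1 and Fstl1. The 20 of 195 therefore cannot be set against that rate. In untreated replicate 1 the genes with a value apart were Tlx2 at 1, Sostdc1 at 31, Grem1 at 6248, Chrdl1 at 12, Dlx2 at 1, Ascl2 at 36, Tfap2c at 19 and Klf5 at 292. In replicate 2 they were Sp7 at 1, Rgmb at 348, Hoxa3 at 20, Usp7 at 620 and Chdh at 2. In replicate 3 they were Sost at 1, Olfr78 at 4 and Gja3 at 4. In replicate 4 they were Ovol2 at 1, Fstl1 at 7092, Prrx2 at 2 and Lfng at 9.

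The effect of BMP4 at day 6 differed between OB and ODR by the test of the difference in 14 of the genes named, with 1 treated library in ODR. Of all genes tested, 1.34% were called. Tlx1, Itga9, Reln and Peg10 were named after their values were seen, so the 14 cannot be set against that share. The log2 difference, OB minus ODR, was 6.58 for Dsg2, 4.75 for Ovol2, 3.61 for Itga9, 4.77 for Isg15, 4.47 for Rtp4, 1.47 for Trim25, 3.90 for Irf7, 4.94 for Oasl2 and −1.73 for Dkk3. It was 0.85 for Pcna and −5.01 for Reln. Tlx1 and Sct had 6.87 and 6.67 and were listed at 0 in untreated OB cells, so these sizes rest on the 1 added before the log. The same holds for Ovol2, at 1 or below in untreated OB cells and listed at 0 in ODR. Peg10 had 4.15, with a value at the ceiling. The adjusted p for Sct was 0.043 and for Peg10 0.047.

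A day 9 library with BMP4, deposited with identical values under the combinations ODDR and ODB, entered no comparison. It had Id3 at 623, Smad6 at 184, Nog at 53, Tlx2 at 134 and Hand1 at 69. The 2 day 9 libraries without BMP4 had Id3 at 16 and 15, Smad6 at 4 and 6, Nog at 1 and 2, Tlx2 at 0 and 3, and Hand1 listed at 0.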

How the results depend on the processing

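Of the 4469 genes called in OB cells, the count was between 3847 and 5070 with another pseudocount, filter, scaling or set of libraries in the fit, within 1.5 times of the reported one. Leaving out 1 OB or untreated ODR day 6 library at a time gave 2570 to 4404 calls, 1198 to 2040 higher and 1372 to 2364 lower, the fewest without BMP4-treated replicate 2. The number of genes with a called difference between OB and ODR, 170, was less stable. It was 262 with a pseudocount of 10 (159 higher in OB), 474 without OA day 14 replicate 2 (263 higher, 211 lower) and 273 with the doubly labelled library under both labels (142 lower). With that library only as ODR with BMP4, 115 were lower. With it only as ODR without BMP4 the counts were larger than reported but within 1.5 times of them. Leaving out 1 library gave 54 to 165, of which 29 to 92 were higher and 25 to 73 lower. The replicate numbers were not shown to pair the samples: deviations of same-numbered libraries correlated at 0.052 and −0.127. With the number as a replicate block, 4034 genes were called in OB, and 103 differed between OB and ODR (61 higher, 42 lower). No result changed sign among called values. Of 195 genes examined, 162 stayed on their side of the threshold without each OB day 6 library in turn. Keeping the doubly labelled library under 1 label only and leaving out an ODR library were chosen after seeing the data. Depth, unknown here, and the 2 treated libraries limit the precision.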
